A study of Mus musculus with 16 samples.

Results

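Dietary phosphorus was compared at low protein in the aortas of mice with chronic kidney disease. The comparison used 8 of the 16 sequenced aortas, 1 mouse each. They were the 4 libraries whose labels give 5/6 nephrectomy (5/6 Nx), 2% phosphorus and 2.5% protein (5/6 Nx-HPi-Lp) and the 4 libraries whose labels give 5/6 nephrectomy, 0.3% phosphorus and 2.5% protein (5/6 Nx-LPi-Lp). All were male C57BL/6J mice, 12 weeks old at surgery, in which most kidney tissue had been ligated or removed, and the labels give 30 days on the diet. The groups are called HPi-Lp and LPi-Lp below. Every animal of both carried the nephrectomy and the protein restriction. Phosphorus was not all that differed. Calcium, sodium and potassium phosphates supplied the phosphorus of the 2% diet, and the 0.3% diet held more calcium carbonate, starch and sucrose in their place. The other 8 libraries came from Sham mice (no nephrectomy, 2% phosphorus, 2.5% protein) and 5/6 Nx-HPi-Hp mice (2% phosphorus, 18% protein). A 5/6 Nx group at low phosphorus and high protein was not analysed here, so the phosphorus contrast could be examined at 2.5% protein alone.

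Failing kidneys clear phosphate poorly, and the parathyroid gland, bone and vitamin D hormones respond to the load. Cells take phosphate up through sodium-coupled transporters, while pyrophosphate and several secreted proteins keep calcium phosphate from precipitating in the vessel wall. Smooth muscle cells of the aortic media draw on glycolysis and mitochondrial oxidation, and the fat around the vessel makes and burns fatty acids. The account below follows these roles, from phosphate handling to energy metabolism, cell division, iron and metals, hormone and clock responses, and vessel signals. Contractile, osteogenic, inflammatory, matrix and mitogen-activated kinase genes are not described as groups, and single genes of these kinds appear where another list holds them.

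Of 54532 genes listed, 16253 passed the filter on low counts and were tested. Calls required an edgeR quasi-likelihood p of 0.05 or less after adjustment and a log2 fold change (HPi-Lp over LPi-Lp) of 1 or more in size. At 2% phosphorus 1284 genes (7.9%) were upregulated and 647 (3.98%) were downregulated. By the adjusted p alone 1806 genes (11.1%) were higher and 1456 (8.96%) were lower, and the groups did not overlap for 4005 genes (24.6%). The median log2 fold change over all genes tested was -0.02. Leaving out HPi-Lp mouse 4 or LPi-Lp mouse 3 lowered the count of downregulated genes to 339 and 392. Gene levels are given below as CPM (normalized counts scaled to 1000000 per library) for mice 1 to 4 of each group, in that order, and are not scaled for gene length. Counts come from whole aorta, in which fewer cells of a type and less RNA per cell cannot be told apart.

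Library totals were 15013203 to 57276915 counts in the HPi-Lp mice and 13738098 to 21547424 in the LPi-Lp mice. The defining markers of smooth muscle were present in all 8 aortas, at a summed level of 2161 to 4972 CPM in the HPi-Lp mice and 7549 to 17190.0 CPM in the LPi-Lp mice, and 6 of the 7 were downregulated. Macrophage markers summed to 708 to 2526 CPM in the HPi-Lp mice and 214 to 366 CPM in the LPi-Lp mice (7 of 7 upregulated), and fibroblast markers to 4650.1 to 23414 CPM in the HPi-Lp mice and 1566 to 2089 CPM in the LPi-Lp mice (6 of 7 upregulated). None of the 7 endothelial markers was called. Markers of some tissue beside the vessel wall were high in single libraries, and the sums of others differed between the groups. Lung epithelium markers summed to 13.5 to 81.2 CPM in the HPi-Lp mice and 3.42 to 6.485 CPM in the LPi-Lp mice. Kidney tubule markers summed to 9.055 to 27.1 and 3.40 to 6.15 CPM, and adrenal cortex markers to 8.47 to 17.95 and 6.06 to 8.34 CPM. These sums did not overlap, while liver and pancreas acinus sums did. Of 7 markers each, 2 of lung, 2 of kidney tubule and 3 of adrenal cortex had enough counts to be tested. The 2 lung markers were upregulated and 0 adrenal cortex markers were called. Of the kidney tubule markers 1 was upregulated (log2 fold change 3.43) and the other, at -0.27, was not called. The part of such tissue was not tested. Heart muscle markers summed to 8106 CPM in LPi-Lp mouse 2 and to 44.1 to 175 CPM in the other 7 mice. Skeletal muscle markers reached 379 CPM in LPi-Lp mouse 2 and 229 CPM in LPi-Lp mouse 4, against 6.30 to 14.2 CPM elsewhere. Sympathetic neuron markers summed to 1555, 25.4, 239.9 and 1159.7 CPM in HPi-Lp mice 1 to 4 and to 5.91, 12.3, 57.8 and 119 CPM in LPi-Lp mice 1 to 4, with Th and Dbh, which make noradrenaline, at 0 counts in HPi-Lp mouse 2. Of the 8 neuron markers 4 were upregulated, 6 without HPi-Lp mouse 2, 3 without LPi-Lp mouse 4, 2 without HPi-Lp mouse 3, and 0 when any of the other 5 mice was left out. Without LPi-Lp mouse 2, 1085 genes were upregulated and 655 downregulated.

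**Figure D1:**
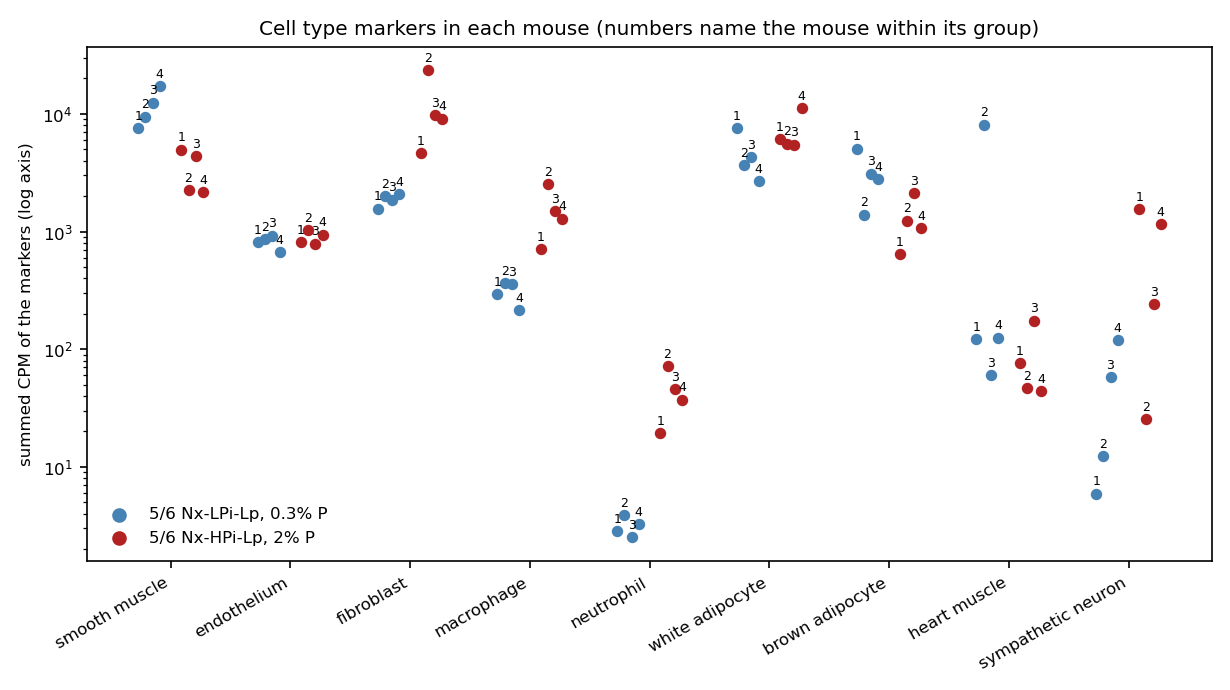
Summed CPM of the markers of 9 cell types (log axis) in each 5/6 Nx mouse on 2.5% protein, blue at 0.3% and red at 2% phosphorus, with the number of the mouse beside its point. The groups are apart for smooth muscle, fibroblast, macrophage and neutrophil markers, and LPi-Lp mouse 2 stands at 8106 CPM for heart muscle.

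Of the phosphate transport and hormone genes, the vitamin D receptor alone was called. Vdr, the nuclear receptor for calcitriol, was at 2.61, 8.84, 4.8 and 4.38 CPM in the HPi-Lp mice and at 0.215, 1.05, 0.865 and 0.508 CPM in the LPi-Lp mice. All 4 mice on 2% phosphorus were above all 4 on 0.3% (2.98 on the log2 scale, SE 0.56, edgeR adjusted p = 0.00786). The sodium-phosphate cotransporters that vascular cells use moved in opposite directions without reaching the fold threshold. Slc20a1 (PiT-1) was at 76.3, 61.4, 55.8 and 72.1 CPM and 38.1, 44.5, 31.7 and 51.2 CPM, a log2 difference of 0.68 (SE 0.17, edgeR adjusted p = 0.0237). Slc20a2 (PiT-2) was at 49, 49.1, 43.1 and 39.5 CPM and 67.2, 89.6, 84.2 and 87.8 CPM, a log2 difference of -0.86 (SE 0.13, edgeR adjusted p = 0.00393). For both transporters the 2 groups did not overlap. Xpr1, the phosphate exporter, overlapped between groups (log2 fold change -0.31, SE 0.22, edgeR adjusted p = 0.346). Of the 9 phosphate genes tested, 1 (11.1%, against 7.9% of all genes) was upregulated and 0 were downregulated, with a median log2 fold change of -0.19. Without HPi-Lp mouse 1, 2 were upregulated and 1 downregulated, and without HPi-Lp mouse 3 or LPi-Lp mouse 1 or 2, 1 was downregulated.

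Among 18 genes of pyrophosphate handling and mineralization inhibition, 5 (27.8%, against 7.9% of all genes) were upregulated and 1 (5.56%, against 3.98%) was downregulated. The list's median log2 fold change was 0.28. Its downregulated member Bmp4, a bone morphogenetic protein, is known to promote bone formation and not to inhibit mineral. Bmp4 was at 33.5, 34, 28.4 and 41 CPM in the HPi-Lp mice and 76.3, 96.9, 73.7 and 59.5 CPM in the LPi-Lp mice. Its level was lower in all 4 mice on 2% phosphorus (log2 fold change -1.16, SE 0.17, edgeR adjusted p = 0.00337). The genes that supply pyrophosphate outside the cell did not pass the test. Enpp1, which makes pyrophosphate from ATP, had a log2 fold change of 0.19 (edgeR adjusted p = 0.668), and Ank, which carries its precursor out of the cell, one of -0.48 (edgeR adjusted p = 0.0667) with no overlap of the groups. Mgp, the matrix Gla protein that inhibits calcification, was at 2786 ± 556 against 2148 ± 624 CPM (mean ± SD, n = 4 each) and was not called (edgeR adjusted p = 0.333). The upregulated members were Spp1, Enpp3, Fbn1, Nt5e and Gas6. Spp1, osteopontin, had the largest change of the list, with 242, 1263, 884 and 527 CPM against 1.13, 2.29, 0.865 and 0.74 CPM (log2 fold change 9.19, SE 0.68, edgeR adjusted p = 0.000299). Nt5e, the ectoenzyme that forms adenosine from AMP, had a log2 fold change of 1.16, and Enpp3, another ectonucleotidase, one of 1.73. The upregulated count was 3 without HPi-Lp mouse 2 or 4 or LPi-Lp mouse 3, and 2 without LPi-Lp mouse 1.

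Genes of fatty acid synthesis were downregulated at 2% phosphorus. Of the 20 de novo lipogenesis genes tested, 12 were downregulated and 0 upregulated, against 3.98% and 7.9% of all genes, and the median log2 fold change was -1.59. Fasn, the fatty acid synthase (chromosome 11, 120805846 to 120824547, mm10), was at 1302, 2969.5, 3577 and 1128 CPM in HPi-Lp mice 1 to 4 and at 23356, 6270.0, 15004 and 6967 CPM in LPi-Lp mice 1 to 4. The lowest mouse on 0.3% phosphorus was above the highest on 2% (log2 fold change -2.52, SE 0.55, edgeR adjusted p = 0.0138). Acly, which makes cytosolic acetyl-CoA from citrate (chromosome 11, 100476353 to 100528000), was at 290.5, 369, 549 and 231 CPM and 3912, 763, 2217 and 1100.2 CPM. Again the groups did not overlap, and LPi-Lp mice 1 and 3 were highest (log2 fold change -2.47, SE 0.51, edgeR adjusted p = 0.0115). The other downregulated members were Acss2, Elovl6, Me1, Acaca, Pnpla3, Thrsp, Agpat2, Gpd1, Acacb and Lpin1, at -2.45 to -1.06 on the log2 scale. The count fell to 4 without HPi-Lp mouse 4 and to 7 without LPi-Lp mouse 3. White adipocyte markers did not run the same way, with 6059, 5585, 5471 and 11144 CPM in the HPi-Lp mice and 7529, 3654, 4268 and 2692 CPM in the LPi-Lp mice, where 2 of the 7 (Retn and Cfd) were upregulated and 0 downregulated. Brown adipocyte markers summed to 646, 1233, 2119.6 and 1065 CPM and 5065, 1392, 3106 and 2775 CPM. LPi-Lp mice 1 and 3 held the highest brown fat sums and also the highest Fasn and Acly. Of the 7 brown fat markers Cidea was downregulated, Dio2 was upregulated, and Ucp1 had a log2 fold change of -1.36 (edgeR adjusted p = 0.0841). The median log2 fold change of the brown fat markers was -1.36, and their downregulated count was 5 without HPi-Lp mouse 3, 4 without LPi-Lp mouse 2, 2 without LPi-Lp mouse 4 and 0 without HPi-Lp mouse 4 or LPi-Lp mouse 3. The upregulated white adipocyte count was 1 without LPi-Lp mouse 3. The part of fat tissue in these differences was not tested.

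Genes that oxidize fuel in mitochondria were downregulated in the same comparison. In the tricarboxylic acid cycle and pyruvate dehydrogenase list 12 of 18 genes (66.7%, against 3.98% of all genes) were downregulated and 0 (against 7.9%) upregulated. All 18 had a negative log2 fold change, and the median was -1.09. Suclg1, a subunit of succinyl-CoA ligase (chromosome 6, 73248382 to 73276911), was at 69.5, 105, 144 and 76.6 CPM in the HPi-Lp mice and 531, 239.5, 341 and 207 CPM in the LPi-Lp mice. No mouse on 2% phosphorus reached the lowest value on 0.3% (log2 fold change -1.74, SE 0.34, edgeR adjusted p = 0.00916). Cs, citrate synthase, was at 291, 369, 457 and 355 CPM and 1240.4, 628, 747 and 442 CPM. Here the groups overlapped, since LPi-Lp mouse 4 was below HPi-Lp mouse 3 (log2 fold change -1.05, SE 0.30, edgeR adjusted p = 0.0359), and the call was lost without HPi-Lp 1, HPi-Lp 2, HPi-Lp 4, LPi-Lp 1 or LPi-Lp 3. Idh3a, a subunit of the NAD-dependent isocitrate dehydrogenase, fell by 1.34 on the log2 scale (SE 0.33, edgeR adjusted p = 0.0214), and was not called without HPi-Lp 4, LPi-Lp 1 or LPi-Lp 3. The count of downregulated cycle genes was 6 without HPi-Lp mouse 1, 7 without HPi-Lp mouse 2, 2 without HPi-Lp mouse 4, 4 without LPi-Lp mouse 1 and 6 without LPi-Lp mouse 3.

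Fatty acid oxidation genes were downregulated as well. Of 31 genes 14 (45.2%, against 3.98% of all genes) were downregulated and 0 (against 7.9%) upregulated, with a median log2 fold change of -1.13. Both subunits of the mitochondrial trifunctional protein, Hadha and Hadhb, were among them, at -1.54 and -1.75, as was the nuclear receptor Ppara at -1.83. Fabp3, which binds fatty acids in muscle cells, was at 16.6, 21.2, 56.9 and 12.4 CPM and 130.2, 529, 97.1 and 68.9 CPM (log2 fold change -2.94, SE 0.73, edgeR adjusted p = 0.0229). Its value in LPi-Lp mouse 2, the aorta with heart muscle markers, was far above the rest (log2 fold change -1.90 without that mouse), and its call was lost without HPi-Lp 2 or HPi-Lp 4. Cpt1b, the muscle carnitine palmitoyltransferase, had a log2 fold change of -1.47 (edgeR adjusted p = 0.116), and Acadm, a medium-chain acyl-CoA dehydrogenase, one of -0.73 (edgeR adjusted p = 0.127), and neither was called. The list's count was 8 without HPi-Lp mouse 1, 7 without HPi-Lp mouse 2, 5 without HPi-Lp mouse 4, and 6 without LPi-Lp mouse 1 or 3.

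Of 77 nuclear genes of the respiratory chain and ATP synthase, all 77 had a negative log2 fold change (median -0.81). The adjusted p was passed by 39 of them, where 8.96% of all genes were lower by it. Past the fold threshold as well fell 13 (16.9% of the 77, against 3.98% of all genes). Of the 77, 0 were upregulated (against 7.9%). Uqcrc1, a core subunit of complex III, was at 263, 326, 407 and 289 CPM in the HPi-Lp mice and 1088, 674, 649 and 440.0 CPM in the LPi-Lp mice. The groups did not overlap (log2 fold change -1.15, SE 0.27, edgeR adjusted p = 0.0188), yet the call was lost without HPi-Lp 4 or LPi-Lp 1. Ndufs1 of complex I had a log2 fold change of -1.14 (edgeR adjusted p = 0.0247) and Sdha of complex II one of -1.11 (edgeR adjusted p = 0.0459), with overlapping groups. Their calls were lost without HPi-Lp 2, HPi-Lp 4 or LPi-Lp 1 for Ndufs1, and without HPi-Lp 1, HPi-Lp 2, HPi-Lp 3, HPi-Lp 4, LPi-Lp 1, LPi-Lp 2 or LPi-Lp 3 for Sdha. Cox7a1, a muscle form of a complex IV subunit, fell by 1.45 on the log2 scale (SE 0.40, edgeR adjusted p = 0.0318), a call lost without HPi-Lp 1, HPi-Lp 2, HPi-Lp 4, LPi-Lp 1, LPi-Lp 2 or LPi-Lp 3. Cox4i1, the form found in most tissues, had a log2 fold change of -0.52 (edgeR adjusted p = 0.145). The count past both thresholds was 2 without HPi-Lp mouse 1, 3 without HPi-Lp mouse 2, 22 without HPi-Lp mouse 3, 3 without HPi-Lp mouse 4, 1 without LPi-Lp mouse 1 and 26 without LPi-Lp mouse 4. LPi-Lp mouse 1 carried the highest brown fat sum (5065 CPM), and brown fat is rich in mitochondria. The part of fat tissue in the respiratory chain values was not tested. The share of all counts on the 37 mitochondrially encoded genes was 27.1%, 19.3%, 25.0% and 22.4% in the HPi-Lp mice and 16.8%, 21.1%, 14.2% and 17.6% in the LPi-Lp mice. The difference of 6.05 percentage points did not pass a two-sided exact permutation test over the 70 splits (p = 0.0571, where 0.0286 is the smallest possible).

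**Figure D2:**
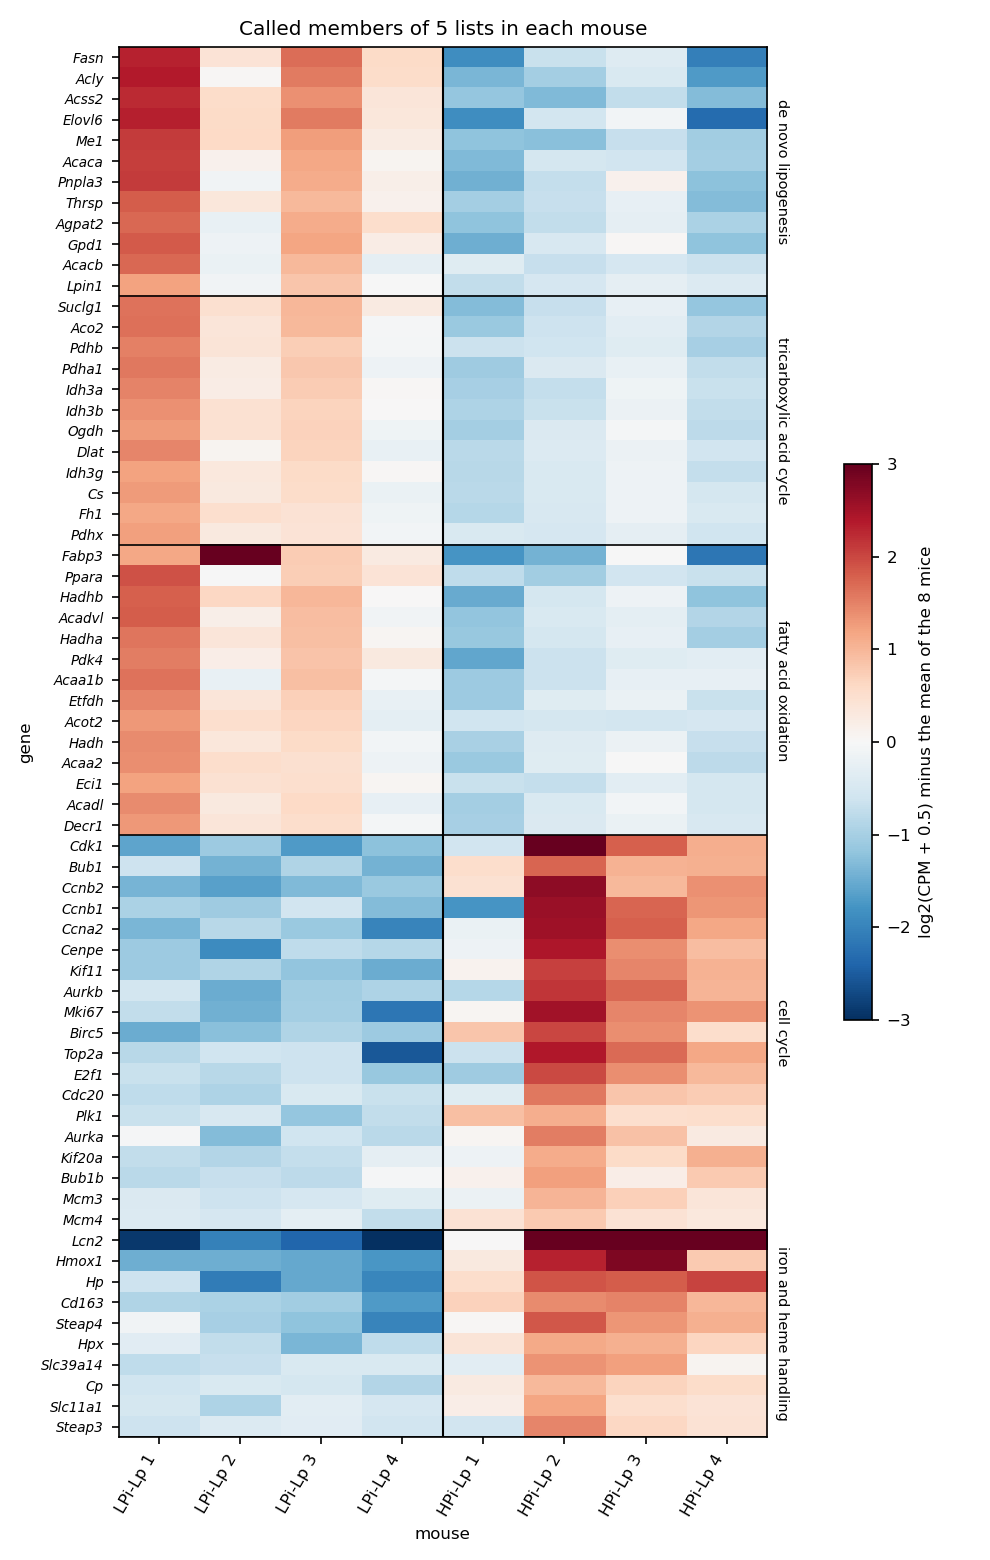
Called members of 5 gene lists (67 lines) in each of the 8 mice, as log2(CPM + 0.5) minus the mean of the 8 mice, with colours ending at 3 and -3. The 38 lines of lipogenesis, tricarboxylic acid cycle and fatty acid oxidation are highest in LPi-Lp mice 1 and 3 in most lines, and the 19 cell cycle lines are highest in HPi-Lp mouse 2 in most lines.

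Glycolysis was mixed. Of 25 genes 7 (28%, against 3.98% of all genes) were downregulated and 3 (12%, against 7.9%) upregulated, with a median log2 fold change of -0.72. The downregulated members Pfkl, Hk2, Eno1, Aldoa, Ldhb and Pfkm are enzymes from glucose phosphorylation to lactate. Hk2, the insulin-responsive hexokinase, was at 39.8, 66.9, 132 and 44.6 CPM and 338, 119.9, 276 and 165 CPM (log2 fold change -1.66, SE 0.44, edgeR adjusted p = 0.0282). Its groups overlapped by HPi-Lp mouse 3, and its call was lost without HPi-Lp 1, HPi-Lp 2, HPi-Lp 4, LPi-Lp 1 or LPi-Lp 3. Pgam2, the muscle phosphoglycerate mutase, was at 0.683, 1.18, 1.32 and 0.75 CPM and 2.58, 99.99, 1.15 and 5.82 CPM (log2 fold change -4.73, SE 1.34, edgeR adjusted p = 0.0353). That value rested on the 99.99 CPM of LPi-Lp mouse 2, without which it was -1.71 and not called, and the call was also lost without any of the 4 HPi-Lp mice. The upregulated members were Slc2a3, Hk3 and Aldoc. Aldoc, an aldolase of nervous tissue, was at 48.1, 0.759, 5.45 and 26.9 CPM and 1.13, 0.618, 1.15 and 2.82 CPM (log2 fold change 3.79, SE 1.07, edgeR adjusted p = 0.0357), and Slc2a3, the glucose transporter GLUT3, at 43.1, 9.6, 10.2 and 42 CPM and 4.08, 3.52, 4.62 and 5.64 CPM. Both were highest in HPi-Lp mice 1 and 4, which also held the highest sums of sympathetic neuron markers. The part of nerve tissue was not tested. The Aldoc call was lost without HPi-Lp 1, HPi-Lp 4, LPi-Lp 1, LPi-Lp 2, LPi-Lp 3 or LPi-Lp 4. Ldha, the main lactate dehydrogenase, had a log2 fold change of -0.38 (edgeR adjusted p = 0.429). The downregulated count was 4 without HPi-Lp mouse 1 or 2 and 2 without HPi-Lp mouse 4, and the upregulated count was 1 without LPi-Lp mouse 3.

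Cholesterol genes were called in shares near those of all genes. Insig1, which holds back the activation of sterol regulatory factors, was at 64.4, 72.1, 72.7 and 59.1 CPM in the HPi-Lp mice and 384, 128, 291 and 140.1 CPM in the LPi-Lp mice (log2 fold change -1.81, SE 0.34, edgeR adjusted p = 0.00784). Stard4, a sterol carrier, was at 19.6, 17.8, 15.9 and 35.1 CPM and 12.4, 10.2, 10 and 9.52 CPM (log2 fold change 1.06, SE 0.25, edgeR adjusted p = 0.0201). Neither gene's groups overlapped, and their directions were opposite. Of 24 genes of this list 2 (8.33%, against 7.9% of all genes) were upregulated, Stard4 among them. Insig1 was the 1 downregulated gene (4.17%, against 3.98%), and the list's median log2 fold change was 0.04. Without LPi-Lp mouse 2, 4 cholesterol genes were downregulated, and without LPi-Lp mouse 4, 2 were. Only 1 was upregulated without HPi-Lp mouse 4 or LPi-Lp mouse 2 or 3, and the Stard4 call was lost in each of these cases.

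The metabolic lists were also set beside the other 8 aortas, scaled together as 16 libraries and summed over each list. Lipogenesis genes summed to 7326 ± 2078 in the Sham mice, 16904 ± 9786 in the HPi-Hp mice, 15162 ± 5837 in the HPi-Lp mice and 50317 ± 31457 in the LPi-Lp mice (CPM, mean ± SD, n = 4 each). Tricarboxylic acid cycle genes summed to 2582 ± 430.2 in the Sham mice, 5665 ± 2763 in the HPi-Hp mice, 4115 ± 847 in the HPi-Lp mice and 9307 ± 4117 in the LPi-Lp mice. For both lists the 5/6 Nx-LPi-Lp mean was the highest of the 4 groups and Sham the lowest, and the SD of the 5/6 Nx-LPi-Lp and 5/6 Nx-HPi-Hp mice was wide. Cell cycle genes, by contrast, summed to 219.8 ± 14.4 in the Sham mice, 194 ± 11.4 in the HPi-Hp mice, 378 ± 142 in the HPi-Lp mice and 182 ± 2.64 in the LPi-Lp mice. There 5/6 Nx-HPi-Lp was the high group and the other 3 means lay between 182 and 219.8 CPM. These sums are a description, with no test.

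**Figure D3:**
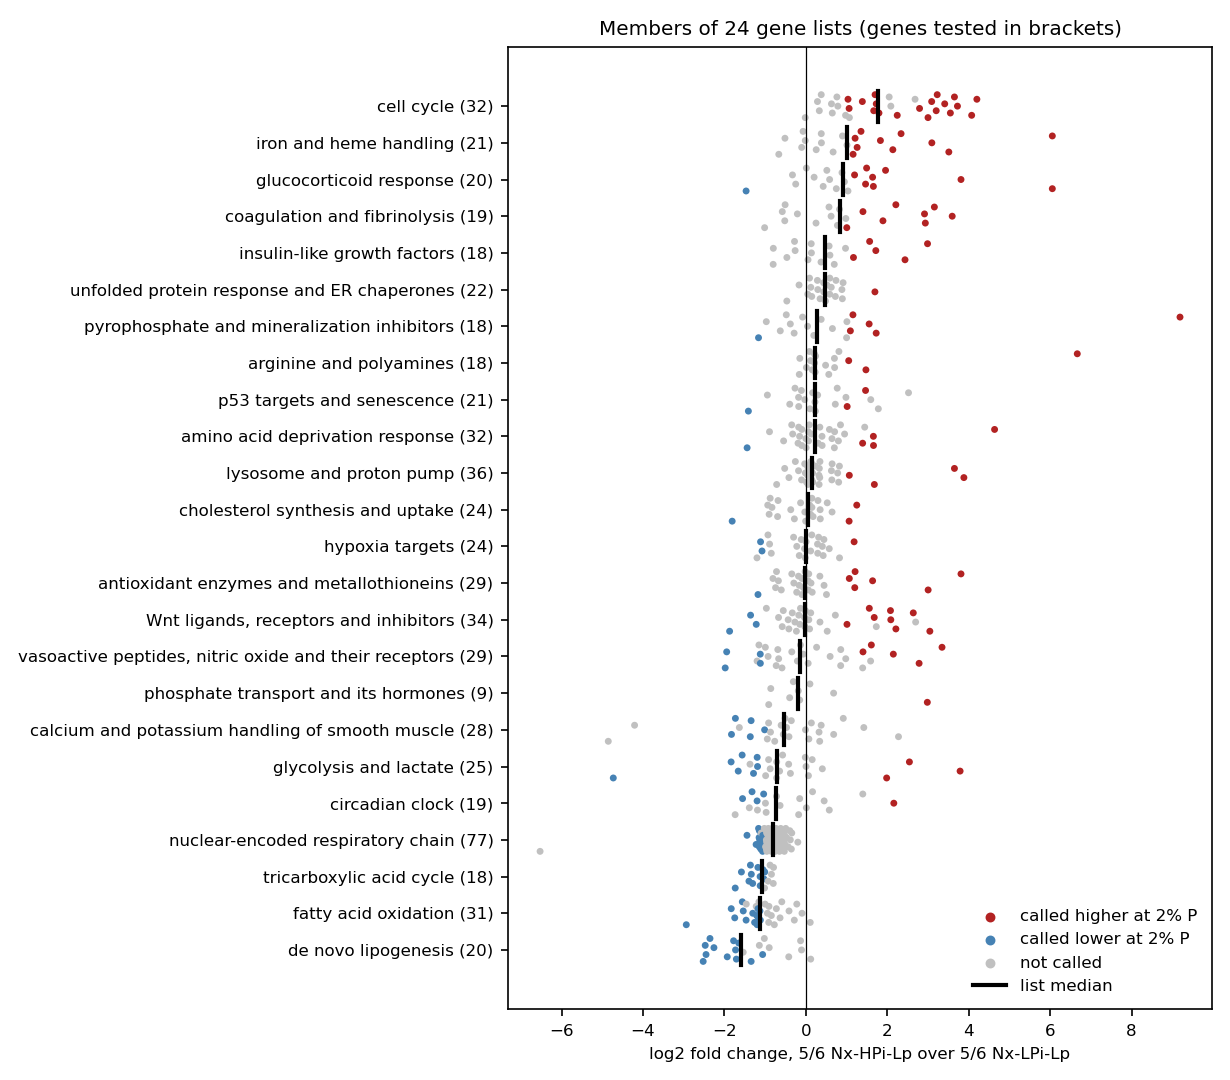
Log2 fold change of each tested member of 24 gene lists (5/6 Nx-HPi-Lp over 5/6 Nx-LPi-Lp), red when called higher, blue when called lower, grey when not called, with a black bar at the list's median. Medians run from -1.59 for de novo lipogenesis to 1.76 for the cell cycle.

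Cell cycle genes were upregulated at 2% phosphorus. Of 32 genes 19 were upregulated and 0 downregulated, against 7.9% and 3.98% of all genes, with a median log2 fold change of 1.76. Cdk1, the kinase that starts mitosis (chromosome 10, 69335146 to 69352938), was at 1.37, 26.4, 9.21 and 5.38 CPM in the HPi-Lp mice and 0.43, 0.803, 0.361 and 0.693 CPM in the LPi-Lp mice. HPi-Lp mouse 2 was by far the highest and HPi-Lp mouse 1 the lowest of its group, yet above all mice on 0.3% phosphorus (log2 fold change 4.20, SE 0.82, edgeR adjusted p = 0.00953). Mki67, whose protein Ki-67 marks dividing cells, was at 6.9, 39.6, 19.1 and 17.4 CPM and 3.71, 2.1, 2.96 and 1.06 CPM, again without overlap (log2 fold change 3.09, SE 0.55, edgeR adjusted p = 0.00642). The upregulated members covered DNA replication (Mcm3, Mcm4), cyclins (Ccna2, Ccnb1, Ccnb2), spindle checkpoint and chromosome motors (Bub1, Bub1b, Cenpe, Kif11, Kif20a), mitotic kinases (Aurka, Aurkb, Plk1) and Cdc20, Top2a, Birc5 and E2f1. Their log2 fold changes ran from 1.03 to 4.20. The count was 11 without HPi-Lp mouse 2 or LPi-Lp mouse 3. Macrophage sums (708, 2526, 1491 and 1282 CPM) and fibroblast sums (4650.1, 23414, 9742 and 9088 CPM) had the same highest and lowest mouse within the 5/6 Nx-HPi-Lp group as Cdk1 and Mki67, and which cells divided was not tested.

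Promoters of many mitotic genes carry a cell cycle homology region next to CCAAT boxes, elements through which repressor and activator complexes time their transcription. The letters TTTGAA and CCAAT were searched on both strands in the 300 bases from 250 before to 50 after each start (RefSeq promoter table, GRCm38.p6), where TTTGAA was found for 20.2% and CCAAT for 41.1% of 27025 genes with at least 1 listed promoter. Of the 15 upregulated cell cycle genes with a listed promoter, 9 held TTTGAA and 13 held CCAAT, and of the 10 tested genes that were not upregulated 2 and 8 did. The promoters of Cdk1 (chr10:69352863-69353162, minus strand) and Ccnb2 (chr9:70421505-70421804, minus strand) are shown since these genes carry the largest mitotic changes with both elements, 2 matches of TTTGAA and 3 of CCAAT in each. They are written 5′ to 3′ with both elements, or their reverse complements, in capitals.
Cdk1: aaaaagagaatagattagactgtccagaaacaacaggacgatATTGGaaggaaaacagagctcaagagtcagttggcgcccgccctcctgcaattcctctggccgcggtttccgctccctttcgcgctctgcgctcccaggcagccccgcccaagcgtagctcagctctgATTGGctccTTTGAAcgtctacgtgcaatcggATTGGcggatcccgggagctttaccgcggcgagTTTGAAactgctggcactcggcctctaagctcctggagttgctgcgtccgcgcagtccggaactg
Ccnb2: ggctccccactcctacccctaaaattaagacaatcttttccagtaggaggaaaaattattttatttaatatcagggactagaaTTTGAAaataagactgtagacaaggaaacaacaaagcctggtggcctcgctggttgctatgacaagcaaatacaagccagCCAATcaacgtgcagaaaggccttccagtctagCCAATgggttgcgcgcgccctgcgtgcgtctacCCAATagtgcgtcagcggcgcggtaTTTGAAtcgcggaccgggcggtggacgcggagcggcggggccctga
Ccnb2, cyclin B2, was at 3.42, 17.9, 5.1 and 6.88 CPM and 0.591, 0.432, 0.649 and 0.832 CPM, without overlap (log2 fold change 3.72, SE 0.56, edgeR adjusted p = 0.00356). A match of letters is a description and not evidence of a binding site.

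Of 21 brakes on the cycle and p53 targets 2 (9.52%, against 7.9% of all genes) were upregulated and 1 (4.76%, against 3.98%) downregulated, with a median log2 fold change of 0.22. Cdkn1a, the cyclin-dependent kinase inhibitor p21, was at 60.8, 94.6, 159 and 93.2 CPM in the HPi-Lp mice and 23.3, 42, 41.5 and 41.2 CPM in the LPi-Lp mice. All mice on 2% phosphorus were higher (log2 fold change 1.47, SE 0.30, edgeR adjusted p = 0.0108). Perp, a p53 target of cell junctions, fell by 1.41 on the log2 scale (SE 0.30, edgeR adjusted p = 0.0133). Cdkn2a, which encodes p16, had a log2 fold change of 1.78 (edgeR adjusted p = 0.110) at levels under 2 CPM. The upregulated count was 1 without HPi-Lp mouse 2 or LPi-Lp mouse 3 and 5 without LPi-Lp mouse 2, and 2 genes were downregulated without LPi-Lp mouse 2 or 4.

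Iron and heme handling genes were upregulated, 10 of 21 (47.6%, against 7.9% of all genes) with 0 downregulated (against 3.98%). The list's median log2 fold change was 1.01. Hmox1, heme oxygenase 1, which splits heme and frees its iron (chromosome 8, 75093621 to 75100589), was at 38.5, 157, 219 and 54.1 CPM in the HPi-Lp mice and 10.9, 10.9, 10.5 and 8.97 CPM in the LPi-Lp mice. The mice on 0.3% phosphorus lay within a narrow range, and all 4 on 2% were above it (log2 fold change 3.51, SE 0.52, edgeR adjusted p = 0.00342). Lcn2, lipocalin 2, which binds the iron carriers of bacteria, was at 11.6, 162, 139.9 and 99.2 CPM and 1.13, 2.47, 1.8 and 0.924 CPM, with HPi-Lp mouse 1 the lowest of its group (log2 fold change 6.05, SE 0.78, edgeR adjusted p = 0.00208). Proteins that scavenge hemoglobin and heme were upregulated together. Hp, haptoglobin, had a log2 fold change of 3.09, its macrophage receptor partner Cd163 one of 2.34, and Hpx, hemopexin, one of 1.83. Steap4, Steap3, Cp, Slc39a14 and Slc11a1, which reduce, oxidize or carry iron, were at 1.16 to 2.13. The genes of iron export and transferrin uptake were not called, with log2 fold changes of 0.90 for Slc40a1, ferroportin (edgeR adjusted p = 0.117), and 0.25 for Tfrc, the transferrin receptor (edgeR adjusted p = 0.499). Macrophage markers, Mrc1 and C1qa among them, rose by 1.80 to 2.60 on the log2 scale in these libraries. Of 7 neutrophil markers 5 were tested, and these rose by 3.18 to 5.09. Ly6g and Camp had too few counts to be tested. S100a8, S100a9, Cxcr2 and Retnlg were at most 0.618 CPM in the LPi-Lp mice and passed the count filter through the HPi-Lp mice. For them the filter favoured a rise. Neutrophils are a known source of Lcn2 and Hp, and their markers summed to 19.3 to 71.4 CPM in the HPi-Lp mice and 2.52 to 3.89 CPM in the LPi-Lp mice, without overlap. Erythroid markers summed to 190.0 to 373 CPM in the HPi-Lp mice and 79.9 to 197 CPM in the LPi-Lp mice. The part of these cell types was not tested.

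Metallothioneins, small proteins that bind zinc and copper, were upregulated within a list of antioxidant genes that was otherwise divided. Of 29 genes 6 (20.7%, against 7.9% of all genes) were upregulated, namely Mt1, Mt2, Mt3, Gpx3, Gpx7 and Gsr. Only 1 (3.45%, against 3.98%) was downregulated, and the median log2 fold change was -0.02. The metal response element, to which the zinc-sensing factor MTF1 binds, was searched as TGCACNC and TGCGCNC on both strands, and 28.2% of the 27025 genes held it in a listed promoter. The promoter of Mt1 (chr8:94178839-94179138, plus strand) held 3 matches and that of Mt2 (chr8:94172368-94172667, plus strand) 4, shown in capitals in the same window of GRCm38.p6 because these neighbouring genes rose together.
Mt1: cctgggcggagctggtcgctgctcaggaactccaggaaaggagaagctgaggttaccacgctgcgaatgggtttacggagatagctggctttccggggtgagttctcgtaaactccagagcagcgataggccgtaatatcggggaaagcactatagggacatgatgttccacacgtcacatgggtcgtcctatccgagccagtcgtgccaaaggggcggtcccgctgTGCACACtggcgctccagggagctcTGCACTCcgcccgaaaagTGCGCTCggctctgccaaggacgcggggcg
Mt2: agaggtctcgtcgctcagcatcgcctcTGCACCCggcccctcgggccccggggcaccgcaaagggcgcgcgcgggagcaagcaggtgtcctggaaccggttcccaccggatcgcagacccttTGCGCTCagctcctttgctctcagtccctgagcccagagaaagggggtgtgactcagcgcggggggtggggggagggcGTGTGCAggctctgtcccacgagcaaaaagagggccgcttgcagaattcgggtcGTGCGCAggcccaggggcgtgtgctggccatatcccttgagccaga
Mt1 was at 357, 979.6, 936 and 569 CPM in the HPi-Lp mice and 245, 309, 211 and 148 CPM in the LPi-Lp mice (log2 fold change 1.64, SE 0.34, edgeR adjusted p = 0.0122). Mt2 was at 4.85, 13.4, 12.9 and 4.5 CPM and 0.537, 1.61, 0.288 and 0.139 CPM (log2 fold change 3.81, SE 0.73, edgeR adjusted p = 0.00874). For both genes every mouse on 2% phosphorus was above every mouse on 0.3%, with HPi-Lp mice 2 and 3 highest. Mt3, the form of nervous tissue, was instead highest in HPi-Lp mice 1 and 4 (12.4, 1.27, 2.3 and 6.75 CPM against 0.537, 0.618, 0.649 and 0.971 CPM), as were the sympathetic neuron markers. Gpx3, the glutathione peroxidase of plasma, was at 1355 ± 244 against 589.8 ± 156 CPM (mean ± SD, n = 4 each) (log2 fold change 1.20, SE 0.23, edgeR adjusted p = 0.00885). Nqo1, a target of the factor NRF2, was lower in all 4 mice on 2% phosphorus without reaching the fold threshold (log2 fold change -0.81, edgeR adjusted p = 0.0317). G6pdx, which supplies NADPH, was downregulated at -1.18 (edgeR adjusted p = 0.0330), a call lost without HPi-Lp 1, HPi-Lp 2, HPi-Lp 4, LPi-Lp 1 or LPi-Lp 3.

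Of 20 glucocorticoid-responsive genes 8 (40%, against 7.9% of all genes) were upregulated and 1 (5%, against 3.98%) was downregulated. The median log2 fold change was 0.92. Fkbp5, a chaperone partner of the glucocorticoid receptor, was at 212, 168, 133 and 186 CPM in the HPi-Lp mice and 37.4, 54.7, 58.6 and 29.4 CPM in the LPi-Lp mice. The lowest mouse on 2% phosphorus was above the highest on 0.3% (log2 fold change 1.96, SE 0.24, edgeR adjusted p = 0.00191). Tsc22d3, the glucocorticoid-induced leucine zipper, was at 166, 159, 132 and 158 CPM and 67.1, 158, 81.5 and 26 CPM, where LPi-Lp mouse 2 lay within the range of the other group (log2 fold change 0.89, SE 0.42, edgeR adjusted p = 0.164). The other upregulated members were Lcn2, Mt1, Mt2, Ddit4, Errfi1, Cdkn1a and Cebpd. Several of them stand in other lists too and answer to other signals. Pdk4, the kinase that turns off pyruvate dehydrogenase, was downregulated (log2 fold change -1.47, SE 0.35, edgeR adjusted p = 0.0205), a call lost without LPi-Lp 3.

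In the circadian clock list Arntl was upregulated and Hlf, Per2, Per3 and Tef were downregulated. Arntl, which encodes BMAL1, was at 5.71, 6.12, 16.9 and 6.63 CPM in the HPi-Lp mice and 0.537, 1.36, 2.88 and 3.14 CPM in the LPi-Lp mice. All 4 mice on 2% phosphorus were higher, HPi-Lp mouse 3 most (log2 fold change 2.16, SE 0.57, edgeR adjusted p = 0.0291). Hlf, a transcription factor driven by the clock, was at 22.9, 18.1, 10.1 and 12.6 CPM and 61.3, 48.6, 36.4 and 40.3 CPM, without overlap (log2 fold change -1.56, SE 0.27, edgeR adjusted p = 0.00587). Per2, a repressor of the clock, was at 126, 48, 58.8 and 47.1 CPM and 182, 157, 183 and 119 CPM, and HPi-Lp mouse 1 lay within the other group (log2 fold change -1.20, SE 0.32, edgeR adjusted p = 0.029). Per3 and Tef were downregulated too, at -1.32 and -1.04, whereas Dbp, at -1.74, was not called (edgeR adjusted p = 0.0954). Of 19 genes 1 (5.26%, against 7.9% of all genes) was upregulated and 4 (21.1%, against 3.98%) were downregulated. The Arntl call was lost without HPi-Lp 3, HPi-Lp 4, LPi-Lp 2 or LPi-Lp 3, and the Per2 call without HPi-Lp 2, HPi-Lp 3, HPi-Lp 4, LPi-Lp 1, LPi-Lp 2 or LPi-Lp 3. The downregulated count was 2 without HPi-Lp mouse 3 or LPi-Lp mouse 1, and 1 without HPi-Lp mouse 4. The hour at which each aorta was taken is not given in the sources used here, so hour and diet cannot be told apart.

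Of 32 genes of the response to scarce amino acids 4 (12.5%, against 7.9% of all genes) were upregulated and 1 (3.12%, against 3.98%) downregulated, with a median log2 fold change of 0.22. Atf4, its central transcription factor, had a log2 fold change of 0.34 (edgeR adjusted p = 0.110) and Asns, asparagine synthetase, one of 0.58 (edgeR adjusted p = 0.246). Slc7a11, the cystine importer, was at 0.932, 7.06, 3.95 and 1.19 CPM and 0.215, 0, 0.216 and 0.0925 CPM, without overlap (log2 fold change 4.63, SE 0.93, edgeR adjusted p = 0.0103). It had at most 4 counts in an LPi-Lp mouse and passed the count filter through the HPi-Lp mice, so the filter favoured a rise. Psat1, Mthfd2 and Ddit4 were the other upregulated members, at 1.39 to 1.66. Vldlr, the very-low-density lipoprotein receptor, had the smallest SE of the genes named here, with 33.2, 39.5, 36 and 36 CPM in the HPi-Lp mice and 105, 97.9, 99.7 and 90.8 CPM in the LPi-Lp mice (log2 fold change -1.44, SE 0.11, edgeR adjusted p = 0.000299). In the unfolded protein list 1 of 22 genes (4.5%, against 7.9% of all genes), Sdf2l1, was upregulated (log2 fold change 1.70, SE 0.35, edgeR adjusted p = 0.0119). The list's median log2 fold change was 0.46. Xbp1, a transcription factor of that response, was at 165, 195, 219.7 and 202 CPM and 97.2, 100.5, 104 and 119 CPM, higher in all 4 mice and short of the fold threshold (log2 fold change 0.90, SE 0.13, edgeR adjusted p = 0.00349). Hspa5, the chaperone BiP, had a log2 fold change of 0.43 (edgeR adjusted p = 0.256). A second gene of the amino acid list was downregulated without HPi-Lp mouse 1. A second gene of the unfolded protein list was upregulated without HPi-Lp mouse 1 or LPi-Lp mouse 4.

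Of 24 hypoxia targets 1 (4.17%, against 7.9% of all genes) was upregulated and 2 (8.33%, against 3.98%) were downregulated. The median log2 fold change was -0.01. Vegfa, the vascular endothelial growth factor, had a log2 fold change of -0.16 (edgeR adjusted p = 0.701). Egln1, an oxygen-sensing prolyl hydroxylase, was at 77.2, 86.3, 92.5 and 67.3 CPM and 243, 159, 169.9 and 127 CPM (log2 fold change -1.11, SE 0.20, edgeR adjusted p = 0.00722), without overlap, and was not called without LPi-Lp 1. Egln3 had a log2 fold change of -0.85 (edgeR adjusted p = 0.0609). Pgf, placental growth factor, was higher in all 4 mice on 2% phosphorus (log2 fold change 1.18, SE 0.29, edgeR adjusted p = 0.0227), a call lost without HPi-Lp 1, LPi-Lp 1, LPi-Lp 3 or LPi-Lp 4. The downregulated count was 1 without HPi-Lp mouse 1, 2 or 4 or LPi-Lp mouse 3, and 0 without LPi-Lp mouse 1.

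**Figure D4:**
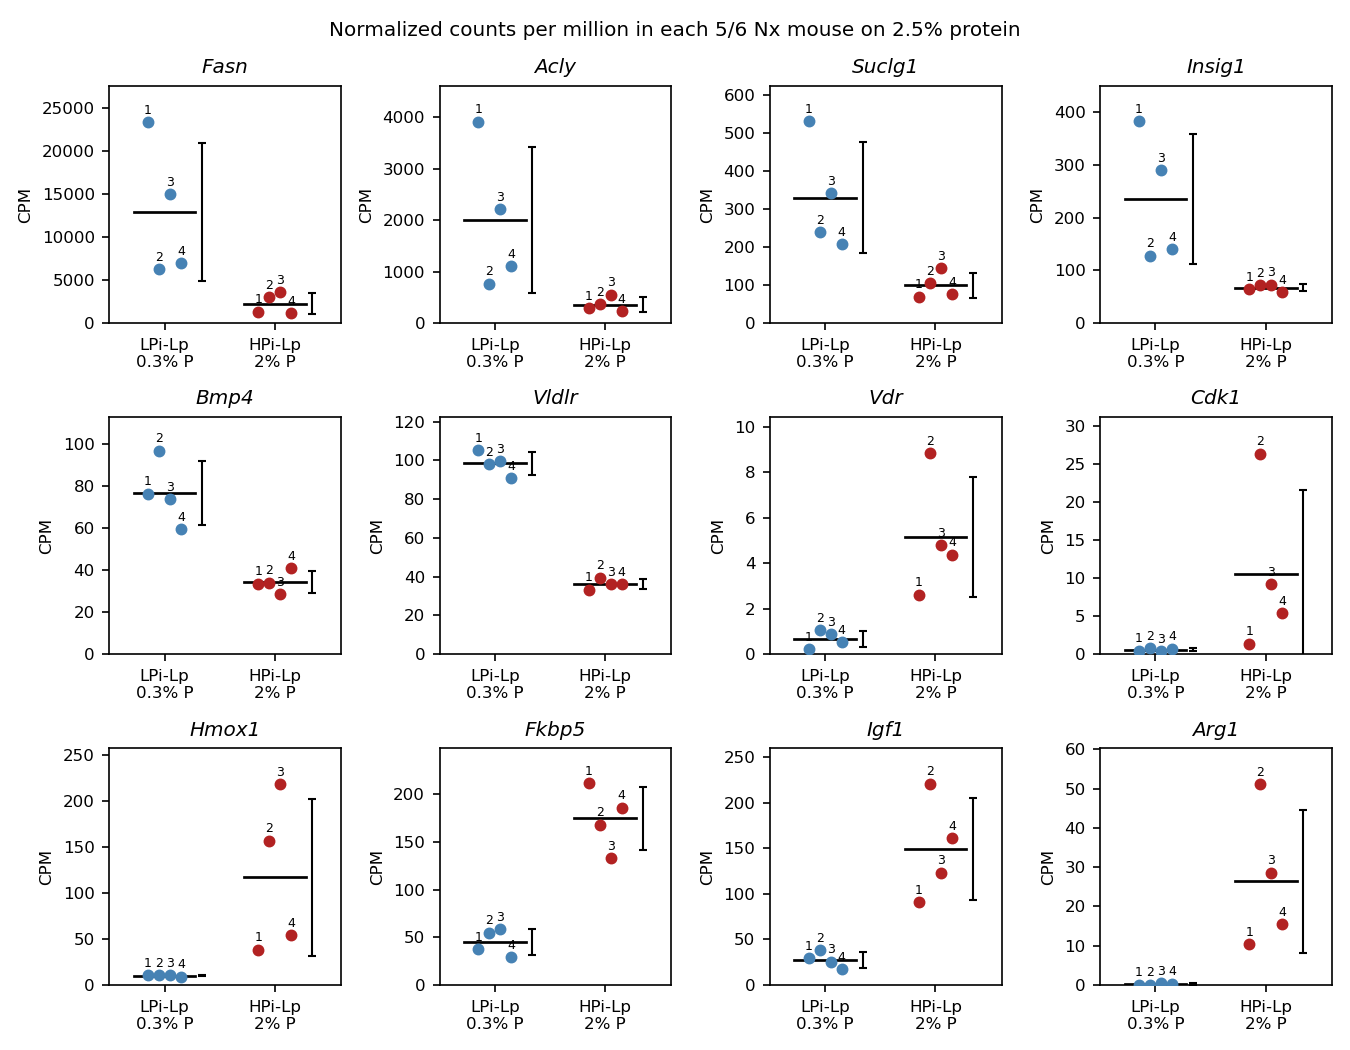
CPM of 12 genes in each mouse (blue 0.3%, red 2% phosphorus), with the number of the mouse, the group mean as a line and the SD as a bar that is cut at 0. The 12 genes were picked for display, and all have groups without overlap, as 24.6% of all genes tested did. The spread is wide for Fasn and Acly at 0.3% and for Cdk1, Hmox1 and Arg1 at 2% phosphorus.

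Of 29 genes of vascular tone 5 (17.2%, against 7.9% of all genes) were upregulated and 4 (13.8%, against 3.98%) were downregulated. Ptgs2, cyclooxygenase 2, was at 31.1, 46.4, 83.3 and 32.6 CPM in the HPi-Lp mice and 4.68, 4.63, 3.53 and 6.15 CPM in the LPi-Lp mice, without overlap (log2 fold change 3.34, SE 0.35, edgeR adjusted p = 0.00101). Ednra, the endothelin receptor of smooth muscle, was at 25.3, 45.2, 24.5 and 21.1 CPM and 11, 14.7, 11.9 and 6.47 CPM, again without overlap (log2 fold change 1.40, SE 0.30, edgeR adjusted p = 0.0138). Ednrb, the other endothelin receptor, Agt, angiotensinogen, and Htr2b, a serotonin receptor, were also upregulated, at 1.61, 2.78 and 2.15. Ramp1, a subunit of the receptor for calcitonin gene-related peptide, was at 43.4, 20.2, 38.6 and 22.9 CPM and 75.1, 102, 137 and 180.4 CPM (log2 fold change -1.98, SE 0.33, edgeR adjusted p = 0.00479). Adra1d, an adrenergic receptor of the aorta, Ptgis, prostacyclin synthase, and Npr3, the natriuretic peptide clearance receptor, were downregulated as well, at -1.95, -1.12 and -1.12. Agtr1a, the angiotensin receptor, was at 19.3, 4.06, 4.32 and 17.4 CPM and 3.33, 7.29, 3.17 and 3.24 CPM and was not called (log2 fold change 1.39, SE 0.57, edgeR adjusted p = 0.111). Its highest values were in HPi-Lp mice 1 and 4. Prkg1, the kinase activated by cyclic GMP, had a log2 fold change of -0.21 (edgeR adjusted p = 0.807). The downregulated count was 2 without HPi-Lp mouse 4 or LPi-Lp mouse 3.

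Of 28 calcium and potassium handling genes of smooth muscle 5 (17.9%, against 3.98% of all genes) were downregulated and 0 (against 7.9%) upregulated. The median log2 fold change was -0.53. Kcnmb1, the beta subunit of the large-conductance potassium channel, was at 27.4, 18.7, 40.3 and 15.9 CPM and 47.7, 57.3, 96.2 and 162 CPM, without overlap (log2 fold change -1.83, SE 0.42, edgeR adjusted p = 0.0175). Cacna1c, the pore of the L-type calcium channel, was lower in all 4 mice but short of the fold threshold (log2 fold change -0.95, SE 0.19, edgeR adjusted p = 0.0111). Atp2a2, the calcium pump of the sarcoplasmic reticulum, was at 254, 208, 280.3 and 168 CPM and 320.3, 1804, 419.8 and 481 CPM (log2 fold change -1.73, SE 0.52, edgeR adjusted p = 0.0428). LPi-Lp mouse 2, with its heart muscle markers, was at 1804 CPM (log2 fold change -0.86 without that mouse), and the call was lost without HPi-Lp 1, HPi-Lp 2, HPi-Lp 3, HPi-Lp 4, LPi-Lp 2, LPi-Lp 3 or LPi-Lp 4. The Kcnmb1 call was lost without HPi-Lp 4. Cacnb2 and Itpr1 were also downregulated, at -1.37 and -1.01 on the log2 scale. Smooth muscle markers fell by 1.19 to 2.20 on the log2 scale (6 of 7), and their part in these values was not tested. The list's count was 2 without HPi-Lp mouse 2 or LPi-Lp mouse 3 or 4, 1 without HPi-Lp mouse 4 and 10 without LPi-Lp mouse 1.

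Of 19 coagulation and fibrinolysis genes 8 (42.1%, against 7.9% of all genes) were upregulated and 0 (against 3.98%) downregulated. The median log2 fold change was 0.83. The upregulated genes held the clotting factors F5, F7, F10 and F13a1, the inhibitor Tfpi2, the urokinase Plau with its receptor Plaur, and Procr, the protein C receptor. F10 was at 1.68, 6.12, 3.1 and 3.19 CPM and 0.161, 0, 1.08 and 0 CPM (log2 fold change 3.59, SE 1.10, edgeR adjusted p = 0.0462). The levels were low, and the call was lost without HPi-Lp 2, HPi-Lp 3, HPi-Lp 4, LPi-Lp 1, LPi-Lp 2 or LPi-Lp 4. F10 passed the count filter through the HPi-Lp mice, so the filter favoured a rise. F3, tissue factor, Plat, the tissue plasminogen activator, and Thbd, thrombomodulin, were not called, at -0.51, 0.62 and 0.25 on the log2 scale (edgeR adjusted p = 0.180, 0.0931 and 0.489). The upregulated count was 5 without HPi-Lp mouse 2 and 4 without LPi-Lp mouse 1.

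In the insulin-like growth factor list 5 of 18 genes (27.8%, against 7.9% of all genes) were upregulated and 0 (against 3.98%) downregulated. The median log2 fold change was 0.47. Igf1 (chromosome 10, 87858265 to 87937042) was at 90.7, 221, 123 and 161 CPM in the HPi-Lp mice and 29.2, 38, 25.5 and 17.4 CPM in the LPi-Lp mice. All 4 mice on 2% phosphorus were higher (log2 fold change 2.43, SE 0.31, edgeR adjusted p = 0.00208). Pappa, the protease that frees it from binding proteins, was at 7.14, 14.8, 7.41 and 7.63 CPM and 0.699, 1.79, 0.865 and 1.29 CPM, also without overlap (log2 fold change 2.99, SE 0.40, edgeR adjusted p = 0.00232). Igfbp3 and Igfbp4, which bind the factor, and Ghr, the growth hormone receptor, were upregulated at 1.72, 1.56 and 1.17. Igf2 had under 1 CPM in every mouse and was not tested.

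Among the secreted Wnt inhibitors that were called, Wif1 alone fell and the others rose. Sfrp4 was at 105, 325, 203 and 219 CPM and 31.7, 20.7, 26.9 and 24 CPM, upregulated without overlap (log2 fold change 3.04, SE 0.32, edgeR adjusted p = 0.00101). Wif1 was at 1.8, 4.2, 5.54 and 2.69 CPM and 6.13, 21.1, 9.88 and 15.8 CPM, downregulated without overlap (log2 fold change -1.87, SE 0.45, edgeR adjusted p = 0.02), with the call lost without HPi-Lp 4. Sfrp1 passed narrowly (log2 fold change 1.01, SE 0.31, edgeR adjusted p = 0.0445), and its call was lost without HPi-Lp 2, HPi-Lp 3, HPi-Lp 4, LPi-Lp 1, LPi-Lp 2, LPi-Lp 3 or LPi-Lp 4. Of 34 genes 8 (23.5%, against 7.9% of all genes) were upregulated and 3 (8.82%, against 3.98%) downregulated. The ligand Wnt2, the receptor Ror2 and the inhibitors Frzb, Dkk2, Sfrp5 and Nkd2 rose, while Nkd1 and the receptor Fzd2 fell. Axin2, a common readout of canonical Wnt signaling, had a log2 fold change of -0.56 (edgeR adjusted p = 0.208) and Dkk3, another inhibitor-like protein, one of -0.33 (edgeR adjusted p = 0.318). The upregulated count was 5 without HPi-Lp mouse 4 or LPi-Lp mouse 1, 3 or 4.

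Arg1, arginase 1, which turns arginine into ornithine, led the arginine list. It was at 10.3, 51.1, 28.6 and 15.5 CPM in the HPi-Lp mice and 0.107, 0.123, 0.433 and 0.37 CPM in the LPi-Lp mice, higher in every mouse on 2% phosphorus (log2 fold change 6.67, SE 0.66, edgeR adjusted p = 0.000891). With at most 8 counts in an LPi-Lp mouse, Arg1 passed the count filter through the HPi-Lp mice, so the filter favoured a rise. Ass1, which rebuilds arginine, and Azin2 were upregulated at 1.05 and 1.47. With Arg1 they made 3 of 18 genes (16.7%, against 7.9% of all genes), and 0 were downregulated (against 3.98%). Odc1, the first enzyme of polyamine synthesis, was at 0.09 (edgeR adjusted p = 0.798). In the lysosome and proton pump list 4 of 36 genes (11.1%, against 7.9% of all genes) were upregulated and 0 downregulated. Atp6v0d2, a proton pump subunit abundant in osteoclasts and some macrophages, was at 3.73, 8.84, 4.02 and 6.75 CPM and 0.323, 0.0618, 0.793 and 0.416 CPM, without overlap (log2 fold change 3.88, SE 0.61, edgeR adjusted p = 0.00416). It too passed the count filter through the HPi-Lp mice. Ctss, the cathepsin of antigen-presenting cells, followed at 3.65, then Ctsl at 1.68 and Atp6v1b2 at 1.07. Lamp1, a membrane protein of all lysosomes, had a log2 fold change of 0.02 (edgeR adjusted p = 0.962).

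The upregulated genes with the largest log2 fold changes are given here, with a set of contractile, osteogenic, inflammatory, matrix and mitogen-activated kinase genes left out by symbol. Such a ranking picks genes with few counts at 0.3% phosphorus, so their low level there is no separate result. Wfdc21, Serpina3m, Tacr1, Nek2, Hmga2, Tcfl5, Saa3, C6, Fgl1 and Arg1 passed the count filter through the HPi-Lp mice. None had more than 11 counts in an LPi-Lp mouse, so the filter favoured a rise. Wfdc21, a secreted protein with a whey acidic protein domain, was at 3.23, 21.3, 14.5 and 29.1 CPM in the HPi-Lp mice and had 0 counts in all 4 of the LPi-Lp mice. Against a floor of 3 counts over that group it was at least 415-fold higher (edgeR adjusted p = 0.00342). Serpina3m, a protease inhibitor, also had 0 counts in the LPi-Lp mice and was at 3.17, 16.3, 14.4 and 9.06 CPM at 2% phosphorus. It was at least 310.1-fold higher (edgeR adjusted p = 0.00231). Tacr1, the receptor for substance P, was at 1.68, 4.57, 1.06 and 0.75 CPM against 0 counts, at least 60.3-fold higher (edgeR adjusted p = 0.00874). Nek2, a mitotic kinase, had 1 count over the 5/6 Nx-LPi-Lp group and a ratio of 231 (95% exact counting interval 41.2 to 9144). Hmga2, a chromatin protein of embryonic tissue, had 2 counts there and a ratio of 140.0 (95% exact counting interval 38.6 to 1159), and Tcfl5, a transcription factor, had 1 count and a ratio of 126 (95% exact counting interval 22.4 to 5004). Saa3, an acute-phase protein, was at 4.1, 234, 157 and 38.1 CPM and 0.0537, 0, 0.433 and 0.185 CPM (log2 fold change 9.38, SE 1.42, edgeR adjusted p = 0.00356). C6, a complement component, was at 4.35, 13.4, 12.5 and 10.9 CPM and 0.0537, 0.123, 0.288 and 0 CPM (log2 fold change 6.56, SE 0.73, edgeR adjusted p = 0.00133). Fgl1, a fibrinogen-like protein known from liver, was at 8.08, 24, 13.5 and 22.7 CPM and 0.591, 0, 0.0721 and 0.185 CPM (log2 fold change 6.23, SE 0.73, edgeR adjusted p = 0.00159). These 9 genes and Arg1 were chosen among genes whose groups did not overlap. Wfdc21, Serpina3m and Saa3 have close relatives in their gene families, between which short reads can be hard to assign.

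The most strongly downregulated genes included many of striated muscle, for which the value of LPi-Lp mouse 2 weighed on the size. Ckm, the muscle creatine kinase, was at 0, 0, 0.195 and 0.0625 CPM and 0.645, 209.7, 0.577 and 12.9 CPM (log2 fold change -9.47, SE 2.29, edgeR adjusted p = 0.0206), a call lost without HPi-Lp 4. Adprhl1, Hrc and Txlnb, which also belong to muscle, and Kcnj11, a pore of the ATP-sensitive potassium channel, were each at 33.9 to 126 CPM in LPi-Lp mouse 2 and at most 10.2 CPM in the other mice. Without LPi-Lp mouse 2 the log2 fold change was -5.98 for Ckm, -3.52 for Adprhl1, -1.82 for Hrc, -1.69 for Txlnb and -2.91 for Kcnj11. Calls were lost without HPi-Lp 3 or HPi-Lp 4 for Adprhl1, HPi-Lp 2, HPi-Lp 3 or HPi-Lp 4 for Hrc, HPi-Lp 4 for Kcnj11 and HPi-Lp 2, HPi-Lp 3, HPi-Lp 4 or LPi-Lp 2 for Txlnb. Tcap, the titin cap protein, was higher in all 4 mice on 0.3% phosphorus, at 269.8, 679.6, 151 and 738 CPM against 45, 32, 15.7 and 27.2 CPM (log2 fold change -3.94, SE 0.55, edgeR adjusted p = 0.00272). Its highest values were in LPi-Lp mice 2 and 4, where skeletal muscle markers summed to 379 and 229 CPM. In LPi-Lp mice 1 and 3 those markers summed to 12.4 and 8.51 CPM. Klk10, a kallikrein-related peptidase, was at 0.621, 0.388, 1.61 and 1.0 CPM and 3.82, 13.2, 17 and 9.98 CPM (log2 fold change -3.59, SE 0.57, edgeR adjusted p = 0.00429), and Gm15721, a predicted gene, at 0, 0, 0.217 and 0.125 CPM and 4.41, 6.73, 3.61 and 4.16 CPM (log2 fold change -5.65, SE 0.90, edgeR adjusted p = 0.00428). These genes kept their calls when any single mouse was left out. Ckm and Gm15721 passed the count filter through the LPi-Lp mice, so for them the filter favoured a fall. Hephl1, a copper-dependent ferroxidase, was at 0, 1.24, 0.847 and 0 CPM and 15.1, 2.72, 11.3 and 8.0 CPM (log2 fold change -3.97, SE 1.01, edgeR adjusted p = 0.0245), and its call was lost without LPi-Lp 1 or LPi-Lp 3.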

How the data were processed

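Total RNA of whole aortas was sequenced after poly-A selection, 1 library per mouse. The authors aligned the reads to mm10 with HISAT2, counted them per gene with featureCounts 1.5.0-p3 (version per the labels) and deposited raw whole-number counts. The authors also deposited FPKM, already scaled between libraries, which were used for alternatives alone. Strand and multiple-match options are not given in the sources used here, so reads of overlapping genes and close copies cannot be told apart. Where a symbol stood for several gene IDs the ID with the most counts was used.

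Groups came from the labels. The 8 libraries were fitted in R 4.3.3 with edgeR 4.0.16 (filterByExpr, TMM scaling, quasi-likelihood test, Benjamini-Hochberg adjustment over all genes tested), after the code was tested on simulated data. limma 3.58.1 and DESeq2 1.42.0 served as alternatives. Nothing beyond separate mice is stated of the replicates, and p-values measure the spread between these mice. Replicate numbers did not pair the mice, since same-number correlations of deviations from the group means were -0.178 to 0.0393. No 2 libraries were copies. Intervals and floors cover counting error only.

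Members, gene lists and alternatives were chosen with earlier results of these data known. Genes were named by rule, as anchors of each list, the called member with the highest and the lowest log2 fold change, and the 10 highest and 10 lowest called genes without overlap, with 50 or more counts on average in either group. The last rule left out contractile, osteogenic, inflammatory, matrix and kinase genes by symbol, Spp1 among them. Other list members were named after their values were seen. A few genes that these rules name are not reported here, and they remain in the counts. Promoters came from RefSeq (GRCm38.p6).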

Additional observations from a re-analysis of the deposited data

Results flagged for a closer look

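Within each group of 4 mice, a value was examined when its gap to the nearest other mouse, divided by the range of the group, was above Dixon's 95% critical value. Among 248 sets of 4 values 18 passed, where chance gives about 1 in 20, and 10 of the 18 belonged to a single mouse, LPi-Lp mouse 2. In that mouse heart muscle markers summed to 8106 CPM, against 60 to 126 in the other 3 mice of its group. Its level was 529 CPM for Fabp3 (others 68.9 to 130.2), 99.99 CPM for Pgam2 (others 1.15 to 5.82) and 1804 CPM for Atp2a2 (others 320.3 to 481). It was also the high mouse for Ckm at 209.7 CPM (others 0.577 to 12.9), Adprhl1 at 84.7 CPM (others 1.06 to 9.08), Hrc at 126 CPM (others 3.82 to 10.2), Kcnj11 at 33.9 CPM (others 6.34 to 8.08) and Txlnb at 74.8 CPM (others 4.73 to 7.58). Agtr1a was at 7.29 CPM there (others 3.17 to 3.33).

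The remaining values were spread over 6 mice. In HPi-Lp mouse 1 Per2 was at 125.5 CPM (others 47.1 to 58.8). HPi-Lp mouse 2 was high for Slc40a1 at 12.0 CPM (others 4.69 to 5.47) and Pappa at 14.8 CPM (others 7.14 to 7.63). HPi-Lp mouse 3 was high for Arntl at 16.9 CPM (others 5.71 to 6.63). In HPi-Lp mouse 4 white adipocyte markers summed to 11144 CPM (others 5471 to 6059) and pancreas acinus markers to 136 CPM (others 14.6 to 28.5). LPi-Lp mouse 1 was low for Cdkn1a at 23.3 CPM (others 41.2 to 42), and LPi-Lp mouse 3 was high for F10 at 1.08 CPM (others 0 to 0.161).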

How the results depend on the processing

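Upregulated genes numbered 902 to 1432 and downregulated genes 339 to 655 when 1 mouse at a time was left out. The count of 1284 upregulated genes moved by over 1.5 times in 3 alternatives, to 728 in a test against a fold of 1.5, to 663 by limma on log2(FPKM + 1) and to 520 by limma without the FPKM filter. The 647 downregulated genes became 227, 405 and 249 in these, and 1456 with no fold threshold. With a replicate block 908 genes were upregulated and 363 downregulated, and 2 of the 8 mice correlated best with the mouse of their own number in the other group. RLE and total-count scaling, DESeq2, both other count filters, all 16 libraries in one fit, a pseudocount of 0.1, removal of mitochondrially encoded genes and thinning to 13738098 counts kept both counts within 1.5 times. Without HPi-Lp mice 2 and 3, the deepest libraries, an alternative chosen after seeing the data, the counts were 1260 and 459. No named gene that was called changed sign in any alternative, and 28 of 69 kept their call in every planned one. The difference in mitochondrial share kept its direction and stayed above 0.05 in every alternative. The cause of these changes was not tested. Limits are set by 4 mice a group and by low counts for genes near 1 CPM.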
